A study of Homo sapiens with 16 samples.

Results

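The region described here is a cluster of 5 genes of the regulator of G protein signaling (RGS) family on chromosome 1, in the order *RGS18*, *RGS21*, *RGS1*, *RGS13* and *RGS2*. Members are the listed acetylation peaks in a window of 800 kb that runs from 80 kb before *RGS18* to 70 kb after *RGS2*, which are 101 of 179689 peaks in 8 lists. On hg19, to 0.01 Mb, *RGS18* was placed at 192.13 to 192.16 Mb, *RGS21* at 192.29 to 192.34 Mb, *RGS1* at 192.54 to 192.55 Mb, *RGS13* at 192.60 to 192.63 Mb and *RGS2* at 192.78 Mb. No peak crossed an edge of the window. The window was chosen by its H3K27ac peaks in A2780 and A2780cis, because a large cluster of them was listed in A2780 and missing in A2780cis. Values of both marks in these lines are therefore a description, and no p-value was computed.

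RGS proteins speed up the hydrolysis of GTP by the α subunits of heterotrimeric G proteins and so shorten signals from G protein-coupled receptors. The genes of this cluster belong to the R4 subfamily. *RGS1* and *RGS13* are known from lymphocytes, where they dampen responses to chemokines, and *RGS13* also from mast cells. *RGS18* is best known from platelets and megakaryocytes, and *RGS21* from taste cells. *RGS2* is widely expressed, responds quickly to stimuli and acts mainly on Gq. H3K27ac and H3K9ac are acetylation marks of active promoters and enhancers.

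All cells were of established human epithelial ovarian cancer lines. A2780 is the cisplatin (cPt)-sensitive parent of A2780cis, which is labeled as cPt treated, and CAOV4 and CAOV4cis form another sensitive and resistant pair. The paper describes A2780 as endometrioid and CAOV4 as high-grade serous. It also states that CAOV4cis was treated with cPt for less time than A2780cis. Subtype and length of treatment thus differ between the pairs. Both resistant lines grew in the presence of cPt, so resistance and the drug itself cannot be told apart. H3K27ac was measured in untreated A2780, in A2780cis, in CAOV4, in CAOV4cis and in A2780 after 1 week of *MBD3* knockdown with shMBD3.26 or shMBD3.232, whose transduced cells had been selected and sorted for GFP. The paper's methods name doxycycline as the inducer of knockdown, in cells first made Tet-on competent. H3K9ac was measured in A2780 and A2780cis. There was 1 library per condition, so no difference has a replicate check, and all samples carried a *D. melanogaster* spike-in of 5%. The inputs and the cells with a control shRNA were not analysed here, and both shRNAs were compared with the same untransduced A2780 list. The lists give the position and width of peaks but no signal, their read depth is unknown, and a stretch without a peak can carry signal under the authors' threshold. In bulk chromatin, fewer acetylated cells and less acetylation per cell cannot be told apart. The lists held 15365 to 28662 peaks and covered 54.5 to 98.9 Mb. The labeled tissue could not be checked against marker genes, because no annotation on hg19 was used. Since gene positions were given to 0.01 Mb, each gene was taken with 5 kb on either side, and a peak at a gene start means a peak within 5 kb of the given start.

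All 5 genes lie on the plus strand in RefSeq (GRCh38.p14). Sequences of the 250 bases before the annotated start are shown for *RGS1* and *RGS13*, whose starts lay in the A2780 peaks, and for *RGS2*, whose start had a peak in A2780cis too. Capitals mark matches to promoter motifs on either strand, which were TATAAA in *RGS1*, the CCAAT box in *RGS13* and *RGS2*, and GGGCGG, here read on the minus strand, in *RGS2*.

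RGS1: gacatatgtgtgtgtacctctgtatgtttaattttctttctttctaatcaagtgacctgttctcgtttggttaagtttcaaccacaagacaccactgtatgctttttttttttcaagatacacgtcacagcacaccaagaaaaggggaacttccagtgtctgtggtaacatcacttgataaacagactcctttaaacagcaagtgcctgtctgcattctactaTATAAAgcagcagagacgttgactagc
RGS13: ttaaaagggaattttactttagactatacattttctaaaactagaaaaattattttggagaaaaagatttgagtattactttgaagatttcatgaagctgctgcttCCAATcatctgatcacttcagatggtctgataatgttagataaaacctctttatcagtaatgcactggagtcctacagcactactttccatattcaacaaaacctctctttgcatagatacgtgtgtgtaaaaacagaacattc
RGS2: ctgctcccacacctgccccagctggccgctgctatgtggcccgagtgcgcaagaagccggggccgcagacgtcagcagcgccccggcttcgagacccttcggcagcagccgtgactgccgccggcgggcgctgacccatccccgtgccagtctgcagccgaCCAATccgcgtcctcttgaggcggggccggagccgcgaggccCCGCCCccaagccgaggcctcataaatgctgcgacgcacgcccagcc

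Over the 300 bases around each start, *RGS2* stood apart from the others in base composition. Its promoter had 69.7% G and C and 32 CpG dinucleotides, with an observed over expected ratio of CpG of 0.888. *RGS1* had 41.7% and 6 CpG, *RGS18* 36% and 3, *RGS13* 33.7% and 2, and *RGS21* 28.7% and 1. The median over 35116 RefSeq promoters was 58.7% G and C, above the values of all members but *RGS2*. TATAAA was found in *RGS1*, at 27 to 22 bases before the start, and in 11.5% of all promoters. CCAAT was found in *RGS13* and *RGS2* and in 34.6% of all promoters, and GGGCGG in *RGS2* and in 45%. The matches did not overlap each other. TGACGTCA, TGANTCA and TTCNNNGAA were searched on both strands too and matched none of the 5, against 1.85%, 7.71% and 7.66% of all promoters.

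In A2780 cells, H3K27ac covered a large part of the window, mainly between *RGS21* and the start of *RGS13*. The list held 28 peaks with 215 kb, or 26.9% of the window. In A2780cis, 2 peaks with 5 kb remained, both at *RGS2*. H3K9ac covered 151.6 kb with 30 peaks in A2780 and 5.6 kb with 2 peaks in A2780cis. With shMBD3.26, H3K27ac covered 169.6 kb with 16 peaks, and with shMBD3.232 it covered 176.4 kb with 17 peaks. In CAOV4, 2 peaks covered 0.4 kb, and in CAOV4cis, 4 peaks covered 5.8 kb. Untreated A2780 and both shRNA lists were thus high, whereas A2780cis, CAOV4 and CAOV4cis were low in this window.

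**Figure D1:**
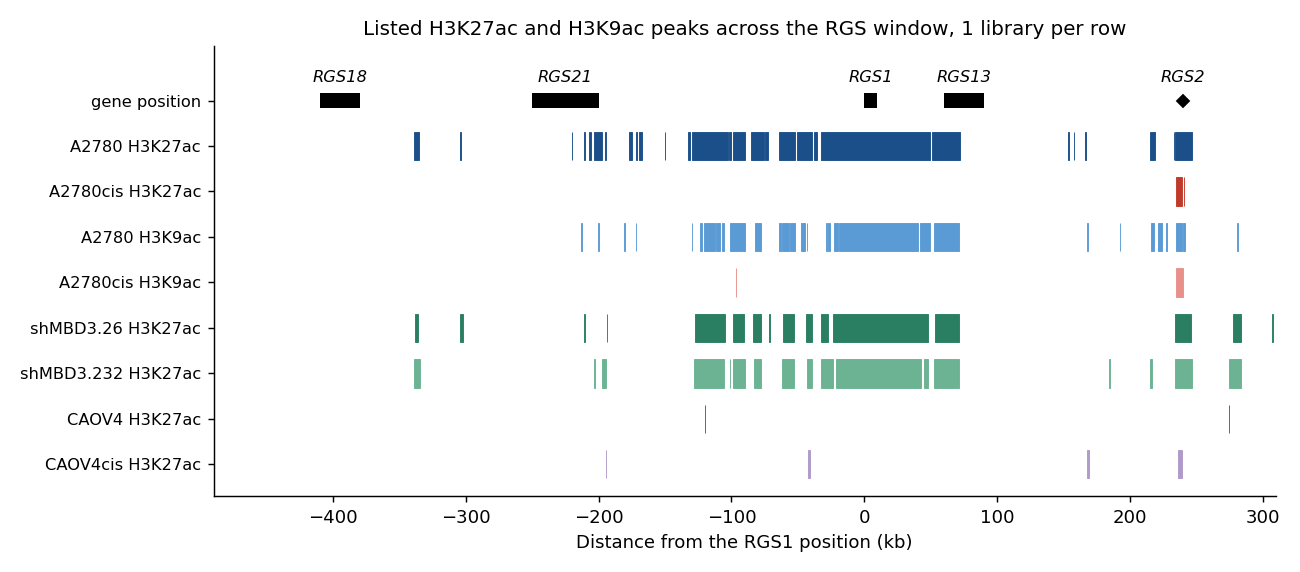
Peaks of the 8 lists across the RGS window, 1 row per list, with the distance from the RGS1 position in kb on the x axis; black bars and the diamond mark the gene positions, given to 0.01 Mb. The 4 lists from A2780 without cPt resistance share a dense block from before *RGS1* to the start of *RGS13*, and 7 of 8 lists have a peak at *RGS2*.

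*RGS18* had no listed peak in any of the 8 lists, neither over the gene nor at its start. The nearest H3K27ac peak in A2780 lay 41.2 kb after the gene, from 192201201 to 192205000. It was also listed with shMBD3.26, from 192201601 to 192204200, and with shMBD3.232, from 192200801 to 192205400. This single peak of 2.6 to 4.6 kb was shared by all 3 H3K27ac lists of A2780 with and without *MBD3* knockdown, and the A2780 H3K9ac list held none there. In A2780cis, the nearest H3K27ac peak was the one at *RGS2*, 615.2 kb away, and in CAOV4cis it lay 101.2 kb before the gene and outside the window. Between *RGS18* and *RGS21*, H3K27ac covered 4.8 kb in A2780, 4.8 kb with shMBD3.26 and 4.6 kb with shMBD3.232, and the other 5 lists had no peak.

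*RGS21* had no peak at its start in any list, and its peaks measured 5.8 kb or less. Over the gene, 5 H3K27ac peaks covered 7.8 kb in A2780, and the widest of them ran from 192336401 to 192342200 near the end of the gene. H3K9ac covered 1.2 kb there in 2 peaks. Coverage was 0.8 kb with shMBD3.26 and 3 kb with shMBD3.232, so that both shRNA lists were lower than A2780. A2780cis had no peak of either mark, and neither CAOV4 nor CAOV4cis had one. In CAOV4cis, a peak of 0.2 kb lay 5.2 kb after the gene. The small values depended on the peaks admitted, since with peaks over 2 kb alone *RGS21* had no H3K9ac in A2780 and no H3K27ac with shMBD3.26.

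The stretch from *RGS21* to *RGS1*, in which RefSeq lists no protein-coding gene but the lncRNA genes LOC124904473, LOC124904472 and LOC105371664, held the most covered length in the 4 lists of A2780 with or without an shRNA. Here H3K27ac covered 109.6 kb of 190 kb in A2780, or 57.7%. It covered 39.5% with shMBD3.26 and 40.3% with shMBD3.232. H3K9ac covered 63.8 kb, or 33.6%, in A2780. In A2780cis, no H3K27ac peak was listed in this stretch, and H3K9ac had 1 peak of 0.2 kb from 192443401 to 192443600. In the A2780 list it began with peaks of up to 2.2 kb next to *RGS21*, followed by peaks of 27.4, 9.4, 9.6, 12.4 and 11.2 kb toward *RGS1*.

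*RGS1* lay inside 1 very wide peak in each of the 4 lists from A2780 cells that were not cPt resistant. In A2780, this H3K27ac peak ran from 192507601 to 192589200. It measured 81.6 kb and ranked 10 by width among all peaks of that list. With shMBD3.26 it ran from 192516601 to 192587800, with 71.2 kb and rank 10, and with shMBD3.232 from 192518601 to 192582600, with 64 kb and rank 21. The H3K9ac peak in A2780 ran from 192521201 to 192580600, measured 59.4 kb and ranked 4 in its list. The gene and its start were fully covered in all 4 lists, so that the uncertainty of its position did not matter there. In A2780cis, CAOV4 and CAOV4cis, neither the gene nor its start had a listed peak. The nearest H3K27ac peak lay 225.2 kb away in A2780cis, 120 kb in CAOV4 and 41.2 kb in CAOV4cis. Between *RGS1* and *RGS13*, H3K27ac covered 95.5% in A2780, 87% with shMBD3.26 and 82% with shMBD3.232, and H3K9ac covered 90.5% in A2780.

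*RGS13* was marked over its start and not over its later part. The A2780 H3K27ac peak there ran from 192591001 to 192612200 and measured 21.2 kb. With shMBD3.26 the peak ended at 192611200, with shMBD3.232 at 192611400, and the A2780 H3K9ac peak ended at 192611200. These right ends lay within 1 kb of each other and the left ends within 2 kb. At *RGS1*, the ends of the single peak over the start were spread over 13.6 kb on the left and 8.6 kb on the right. That spread includes splitting, since several peaks of each other list touched the A2780 *RGS1* peak. The outermost of them began at 192507201 with both shRNAs and at 192511001 for H3K9ac. They ended at 192587800 with both shRNAs and at 192589600 for H3K9ac. Coverage of the gene was 17.2 kb of 40 kb in A2780, 16.2 kb with shMBD3.26, 16.4 kb with shMBD3.232 and 16.2 kb for H3K9ac. Neither *RGS1* nor *RGS13* had a peak in the other 4 lists.

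**Figure D2:**
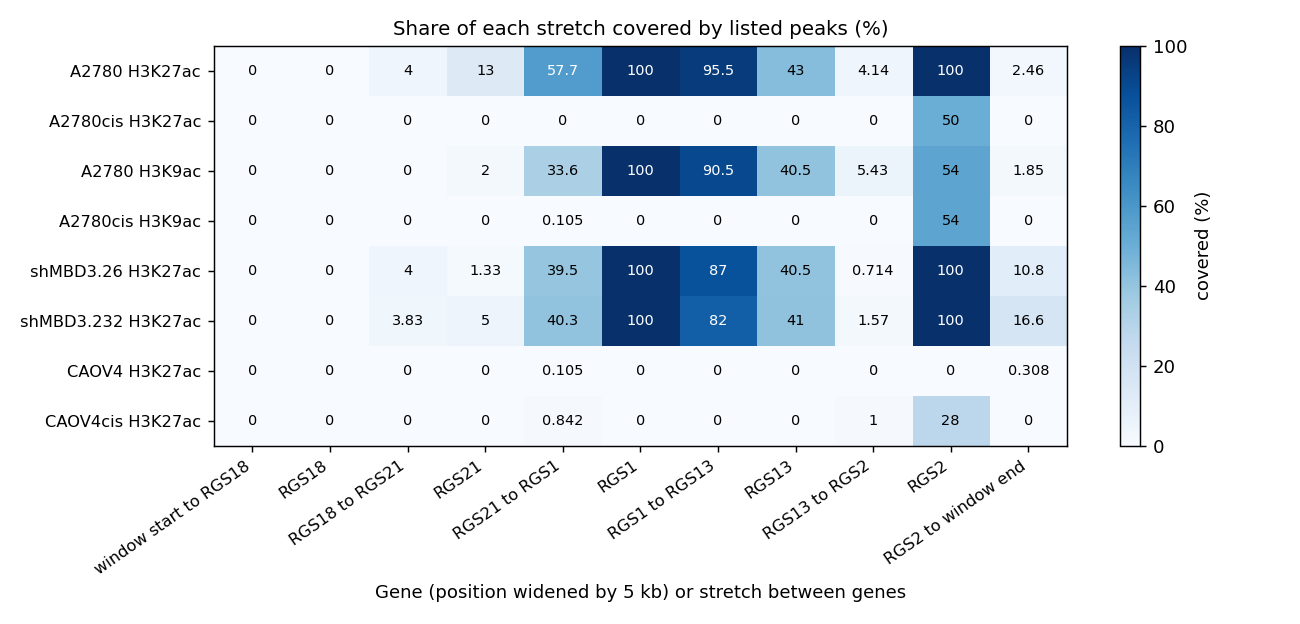
Share of each gene (position widened by 5 kb) and of each stretch between genes that was covered by listed peaks, in %, for the 8 lists; darker cells and the printed value give the covered share. *RGS1* was covered to 100% in 4 lists and to 0% in the other 4, whereas *RGS2* was covered to 50% or more in 6 lists.

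*RGS2* was the only gene of the cluster with a peak in A2780cis. In A2780, an H3K27ac peak of 12.2 kb from 192774401 to 192786600 covered the gene position and all of the 10 kb around it. In A2780cis, a peak of 4.4 kb from 192775201 to 192779600 and one of 0.6 kb from 192780601 to 192781200 covered 5 kb of them. The outer left ends lay 0.8 kb apart and the outer right ends 5.4 kb, so that most of the missing length lay on the right side. H3K9ac differed less, with 5.4 kb covered in A2780 by 2 peaks and 5.4 kb in A2780cis by 1 peak from 192775001 to 192780400. With shMBD3.26 the H3K27ac peak measured 12 kb and with shMBD3.232 13 kb, and both covered the 10 kb in full. CAOV4 had no peak within 5 kb of the *RGS2* position, and CAOV4cis had 1 of 2.8 kb from 192776401 to 192779200, inside the stretch covered in A2780 and A2780cis. Between *RGS13* and *RGS2*, H3K27ac covered 5.8 kb in A2780, 1 kb with shMBD3.26, 2.2 kb with shMBD3.232 and 1.4 kb in CAOV4cis, and H3K9ac covered 7.6 kb in A2780.

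After *RGS2*, both shRNA lists held a peak that the A2780 H3K27ac list did not. With shMBD3.26 it ran from 192817801 to 192823600 and measured 5.8 kb. With shMBD3.232 it ran from 192814801 to 192823800 and measured 9 kb. It lay 34.8 to 37.8 kb after the *RGS2* position and was the single region of the window with a peak under both shRNAs and none in untransduced A2780, that is 1 of 11 regions with both shRNAs, beside 4.86% of all 14435. The A2780 H3K9ac list held a peak of 1.2 kb inside it, from 192820601 to 192821800, and CAOV4 an H3K27ac peak of 0.2 kb from 192814801 to 192815000. A2780cis had no peak of either mark there. Cells with shRNAs were also made Tet-on competent, transduced, selected, given doxycycline and sorted. In this design, these steps cannot be told apart from the knockdown.

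**Figure D3:**
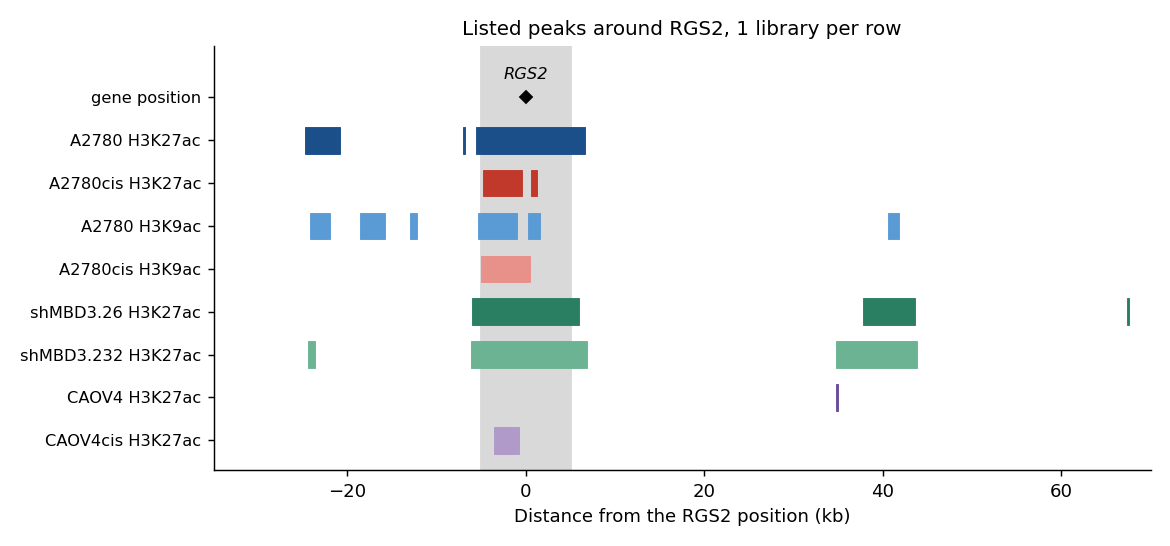
Peaks of the 8 lists from 35 kb before to 70 kb after the RGS2 position, 1 row per list; the gray band is the stretch of 10 kb counted as *RGS2*. H3K27ac at *RGS2* was narrower in A2780cis than in A2780, and the peak 34.8 to 37.8 kb after the gene was listed with both shRNAs.

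Neighboring peaks were joined into clusters over the distance that ROSE, a super-enhancer caller, takes by default. The A2780 H3K27ac peaks around *RGS1* and *RGS13* formed 1 cluster of 11 peaks from 192407201 to 192612200. It had 179.6 kb covered, which was 83.5% of the covered length of the window, and ranked 14 among 14153 clusters. With shMBD3.26, 9 peaks formed a cluster from 192412401 to 192611200 with 145.8 kb and rank 14. With shMBD3.232, the cluster was split before 192478001 and had 107.8 kb and rank 37. In H3K9ac, the cluster began at 192511001 and had 91.4 kb and rank 28. At this distance, *RGS1* and the start of *RGS13* thus lay in the same cluster in all 4 lists, and *RGS21* and *RGS2* outside it. With 25 kb of stitching, the *RGS21* peaks join the cluster in A2780 H3K27ac, because each gap between them is shorter. In the shRNA and H3K9ac lists a wider gap remains before *RGS21*. The *RGS2* cluster had 12.4 kb and rank 1786 in A2780, and 5 kb and rank 4599 in A2780cis. The ranks at *RGS1* depended on the distance of stitching: with 5 to 25 kb they ran from 14 to 39 in A2780, from 14 to 36 with shMBD3.26, from 30 to 44 with shMBD3.232 and from 7 to 28 for H3K9ac.

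Regions were formed by merging the peaks of 2 lists that shared at least 1 bp. For H3K27ac in A2780 and A2780cis, 27 of the 28 regions of the window were listed in A2780 only and 1 was common, against 38.1% A2780-only and 17.9% A2780cis-only among all 32379 regions. For H3K9ac, 27 of 29 regions were A2780-only, against 46.0% of all regions, and none was A2780cis-only, against 21.7%. Both counts belong to the contrast that chose the window. When the chromosomes were cut into tiles of 800 kb in step with the window, 18.2% of 746 tiles with at least 5% covered in A2780 had at least 2 times less H3K27ac length in A2780cis, and 16.5% of 411 tiles had so for H3K9ac. The RGS window was one of them in both marks, where H3K27ac fell by 210 kb, with rank 6 among 3233 tiles by kb lost, and H3K9ac fell by 146 kb, with rank 5. Over all chromosomes, A2780cis had 95% of the H3K27ac and 98.7% of the H3K9ac covered length of A2780, against 2.33% and 3.69% in the window.

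The lists with *MBD3* knockdown were not used to choose the window, but their reference, the A2780 H3K27ac list, was, so their ratios to it and the A2780-only counts are a description as well. The covered length of the window with shMBD3.26 was 78.9% of that in A2780 and with shMBD3.232 82%. Over all chromosomes these shares were 79.5% and 81.7%, close to those of the window. Among 746 tiles, the 10th and 90th percentiles were 58.1% and 95.5% with shMBD3.26 and 57.3% and 103.9% with shMBD3.232, with the window between them. At least 2 times less length was found in 3.89% of 746 tiles with shMBD3.26 and in 6.17% with shMBD3.232, and the RGS window was not among them. Counted as regions, 17 of 32 were A2780-only against shMBD3.26, or 53.1% (95% Wilson interval from 36.4% to 69.1%), beside 34.0% of all regions. Against shMBD3.232, 15 of 30 were A2780-only, or 50% (33.2% to 66.8%), beside 40.1%. Regions found with the shRNA only were 4 of 32 for shMBD3.26, beside 18.0% of all regions, and 2 of 30 for shMBD3.232, beside 10.9%. These intervals cover counting error only, and neighboring peaks are not independent. Of the 28 A2780 peaks, 13 had no partner with either shRNA, beside 33.1% of all 28662 A2780 peaks. Those in the window had a median width of 600 bp, a widest of 2.2 kb and 13.2 kb in all, and over all chromosomes such peaks had a median of 800 bp. Against shMBD3.26 alone, the widest A2780-only region was the peak of 5.8 kb at *RGS21*. Among the 9 A2780 peaks over 5 kb, 8 had a partner with shMBD3.26 and 9 with shMBD3.232, beside 96.8% and 94.7% of all 5452 A2780 peaks over 5 kb. A partner could be small, since the one with shMBD3.232 at *RGS21* covered 0.6 kb of 5.8 kb. In A2780cis, 1 of the 9 had a partner, that at *RGS2*, beside 83.8%, in the contrast that chose the window. The shRNA lists shared 159.2 kb in the window, which was 93.9% of the length with shMBD3.26 and 90.2% of that with shMBD3.232. Over all chromosomes, 76.5% and 74.4% were shared. Both lists come from A2780 cells, and the window was chosen for its large A2780 H3K27ac cluster. This favors overlap by length, so the comparison is a description. By number of peaks the window did not stand out, as 11 of 16 shMBD3.26 peaks touched an shMBD3.232 peak, beside 66.4% of all, and 12 of 17 the other way, beside 77.7%.

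**Figure D4:**
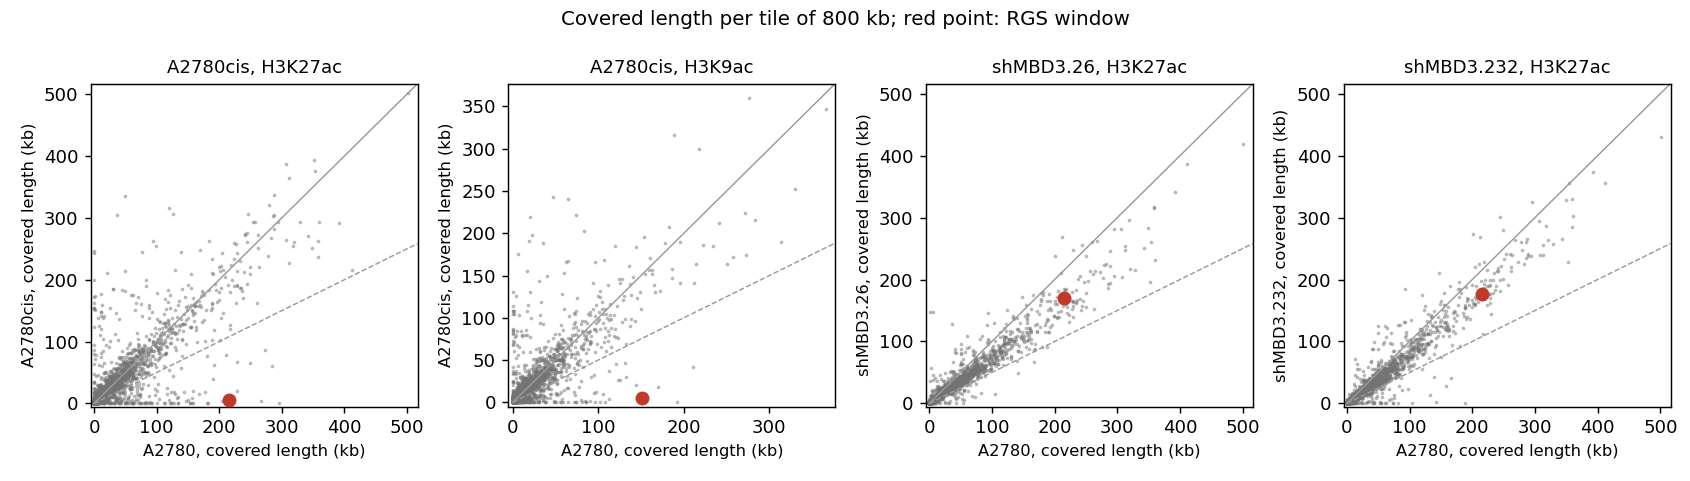
Covered length per tile of 800 kb in A2780 (x axis, kb) and in A2780cis or with an shRNA (y axis, kb), 1 gray point per tile; the solid line marks equal length, the dashed line 2 times less, and the red point the RGS window. The window fell from 215 to 5 kb for H3K27ac in A2780cis and lay at 169.6 and 176.4 kb with the shRNAs.

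Most of the H3K9ac length in A2780 lay under H3K27ac. Of the 151.6 kb of H3K9ac in the window, 142.4 kb, or 93.9%, lay under an H3K27ac peak, against 78.7% over all chromosomes. The window was chosen for its large A2780 H3K27ac cluster, which favors such overlap, so this comparison is a description. Counted as peaks, 22 of 30 H3K9ac peaks touched an H3K27ac peak, beside 66.6% of all, and 11 of 28 H3K27ac peaks touched an H3K9ac peak, beside 45% of all. H3K9ac had 0.705 times the covered length of H3K27ac in the window and 0.558 times over all chromosomes. The ratio differed along the cluster. It was 1.00 at *RGS1*, 0.942 at *RGS13* and 0.948 between these genes, but 0.582 in the stretch before *RGS1*, 0.540 at *RGS2* and 0.154 at *RGS21*. The highest ratio, 1.31, was found between *RGS13* and *RGS2*, where both marks had little length and 34.2% of the H3K9ac lay under H3K27ac. After *RGS2* it was 0.75, and none of the H3K9ac lay under H3K27ac. All of these ratios rest on widths in 2 lists and have no error. A core of 124.6 kb in 17 intervals was covered in all 4 lists, A2780 H3K27ac, both shRNAs and A2780 H3K9ac. The largest interval of the core, 59.4 kb from 192521201 to 192580600, held *RGS1*, and the next, 18.2 kb from 192593001 to 192611200, held the start of *RGS13*.

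The CAOV4 pair had few listed peaks in this window. None of the 6 merged regions was common to CAOV4 and CAOV4cis (95% Wilson interval from 0% to 39%), beside 37.1% of all 32982 regions. Of these, 2 were CAOV4-only, at 0.2 kb each, which was 33.3% (9.68% to 70%) beside 29.1% of all regions. CAOV4cis-only were 4, or 66.7% (30% to 90.3%), beside 33.8%. The CAOV4cis peaks measured 0.2, 1.4, 1.4 and 2.8 kb, and 3 of 4 touched an A2780 H3K27ac peak, against 44.3% of all CAOV4cis peaks. Here too, the choice of a window rich in A2780 H3K27ac favors overlap. The peak at *RGS2* was the only CAOV4cis peak over 2 kb. With 6 regions, each of the 3 intervals held the share over all regions.

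In the 800 kb before the window, on the side of *RGS18*, no peak was listed except 2 in CAOV4cis with 1.4 kb. Before the first A2780 H3K27ac peak of the window, no peak was listed for 3079.2 kb, and in A2780cis the empty stretch ran for 3220.8 kb from 189554401 up to *RGS2*. In CAOV4cis, the gap before its first peak of the window was 316.4 kb. On the side of *RGS2*, where RefSeq lists *UCHL5*, *RO60*, *GLRX2* and *CDC73* as the next protein-coding genes, the following 800 kb held peaks in A2780cis too. H3K27ac covered 96.8 kb there in A2780 and 72.4 kb in A2780cis, and H3K9ac 60.2 kb and 70.8 kb. The shRNA lists had 56.2 and 70.2 kb, CAOV4 13.4 kb and CAOV4cis 26.6 kb. Unlike the window, this side thus had covered lengths of the same order in A2780 and A2780cis. The number of peaks was lower in A2780cis, with 12 against 29 for H3K27ac and 13 against 21 for H3K9ac. Over all chromosomes it was lower too, with 20899 against 28662 and 15365 against 22782.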

How the data were processed

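H3K27ac and H3K9ac ChIP-seq was analysed as 8 deposited peak lists, 1 per library. For alignment the authors used Bowtie2 and for peak calling MACS2, and they quantile normalized the data. Versions are not given in the sources used here, and the submitters' processing notes name GRCh37 and hg19. The deposited lists hold starts and ends on a grid of 200 bp, and a score of 0 in every row, which was not used. On other than the standard chromosomes, 6 peaks were left out. Gene positions were those of the rule that defines the window, given to 0.01 Mb.

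Covered length was summed over peaks clipped to the window. Peaks of 2 lists that shared 1 bp or more were merged and classed by list, peaks no farther apart than the default distance of ROSE were stitched and ranked by covered length, and shares of counts have 95% Wilson intervals, which cover counting error only. The classing was tested on simulated data, where all 400 peaks taken out of copied A2780 H3K27ac lists (28662 peaks) were found. The copies were otherwise identical, so this checks the code only. Shifted ends and split peaks, as between real lists, were not tested. Promoter sequences are from RefSeq (GRCh38.p14), matched by symbol for 5 of 5 genes. Its coordinates were used only for the order of neighboring genes. The other RGS, G protein and marker genes planned for comparison need an annotation on hg19 and were not analysed here. Named genes were the 5 members. The members, lists and motifs were chosen with earlier results of these data known, and the limit of 5 kb for wide peaks, the reference to the whole lists and the stretch after *RGS2* after seeing values. Python 3.11.15, numpy 2.4.6, pandas 2.3.3, SciPy 1.17.1 and matplotlib 3.10.9 were used.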

Additional observations from a re-analysis of the deposited data

Results flagged for a closer look

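H3K27ac covered less of the window in A2780cis than in A2780, but more in CAOV4cis than in CAOV4. Each value rests on 1 library, and the difference between the pairs was not tested. The fall in A2780cis is the reason why the window was chosen, so its direction was fixed in advance. CAOV4 had 0.4 kb in the window and thus little length to lose. The pairs also differ in subtype and in length of cPt treatment. Over the whole window, covered length changed by -210 kb in A2780cis and by 5.4 kb in CAOV4cis. From *RGS21* to *RGS1*, the changes were -109.6 kb and 1.4 kb, and from *RGS13* to *RGS2*, -5.8 kb and 1.4 kb. At *RGS2*, coverage fell from 10 to 5 kb, a change of -5 kb, in A2780cis and rose from 0 to 2.8 kb, a change of 2.8 kb, in CAOV4cis. The changes in CAOV4cis rest on 4 peaks of 0.2 to 2.8 kb.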

How the results depend on the processing

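Alternatives were other choices of peaks, overlap, stitching, tiles and gene intervals. At *RGS2*, H3K9ac covered 5.4 kb in both A2780 and A2780cis, but 4 kb and 5.4 kb with peaks over 2 kb. Over the 5 genes, all but 12 coverage values stayed within 1.5 times, and these were small *RGS21* values or *RGS1* without the added 5 kb (10 kb in each of 4 lists, still fully covered). With peaks over 2 kb, with the wider 50% or with the same number of widest peaks per list, the window had 0 kb in CAOV4 and 2.8 kb in CAOV4cis. Counts of regions rested on narrow peaks. With peaks over 2 kb, 11 H3K27ac regions and 13 H3K9ac regions were A2780-only against A2780cis, with 1 common in H3K9ac, 0 were CAOV4-only and 1 was CAOV4cis-only. Against shMBD3.26, 3 were A2780-only, 2 shRNA-only and 9 common, and the same counts were found against shMBD3.232. A2780-only regions were thus fewer than common ones here. In the main counts they were more, with 17 against 11 for shMBD3.26 and 15 against 13 for shMBD3.232. With the same number of widest peaks, 13 H3K27ac regions were A2780-only and 1 was common against A2780cis, 0 were CAOV4-only and 1 was CAOV4cis-only. For each shRNA, 5 were A2780-only, 2 shRNA-only and 9 common. With peaks within 5 kb joined, 9 were A2780-only, 2 shRNA-only and 8 common for shMBD3.26. For shMBD3.232, 10 were A2780-only, 2 shRNA-only and 6 common. Shares over all regions are not given at these settings, so the counts cannot be set beside them. The rank of the *RGS1* cluster was 39 in A2780 and 36 with shMBD3.26 at 25 kb of stitching, and 28 with shMBD3.26 and 7 for H3K9ac at 5 kb. With tiles shifted by 50% of a window, 2.90% of CAOV4 tiles had at least 2 times less length in CAOV4cis, against 4.38%. Causes of these shifts were not tested. No paired analysis was possible because there was 1 library per condition and the labels carry no replicate numbers. Without signal values or read depth, the height of peaks and signal under the threshold could not be compared.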
